A study of Mus musculus with 24 samples.

Results

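Cholesterol leaves a cell through a small set of pumps, carriers and enzymes, many of them switched on by the liver X receptors (LXRs), and 10 genes of this system were followed in sorted mouse microglia, the resident macrophages of the brain. The 10 genes were taken by symbol from a table of 22064 Entrez gene identifiers, and all 10 had values. They were the receptors Nr1h2 (LXR beta) and Nr1h3 (LXR alpha), the efflux pumps Abca1 and Abcg1, the lipid acceptor Apoe, the lysosomal sterol carriers Npc1 and Npc2, and the target genes Mylip, Lpcat3 and Srebf1. The choice went by name and role, not by a threshold on their levels, but it was made with earlier results of these data known.

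The study concerns, by its title, exosomes from foam cells (lipid-laden macrophages) and the passing of metabolic defects to microglia in ischemic white matter injury. Microglia were sorted by flow cytometry with markers that the labels do not name, and their RNA was amplified by Smart-seq2, a method for small inputs. All animals were of WT genotype, and all libraries are labelled 28 d. The 4 groups of 6 libraries were Sham+PBS, BCAS+PBS, BCAS+ND-Exos and BCAS+WD-Exos, written Sham, BCAS, ND-Exos and WD-Exos from here on. BCAS is the common abbreviation for bilateral carotid artery stenosis, an operation that narrows both carotid arteries and lowers forebrain blood flow. Exosomes, small vesicles shed by cells, were given to BCAS mice by tail vein in doses of 100 µg every 3 days for 28 days. The labels do not expand ND and WD, give no age or sex, and do not say whether the 6 libraries of a group came from separate mice. Every p-value therefore measures the spread between these libraries, which may in part be technical.

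LXRs are nuclear receptors that bind oxidised sterols, pair with a retinoid X receptor on DNA, and raise transcription when a cell holds excess cholesterol. Abca1 moves cholesterol onto lipid-poor apolipoproteins and Abcg1 onto lipidated particles, with Apoe as the main acceptor in the brain. In microglia this route handles the cholesterol of engulfed myelin, after Npc2 and Npc1 have passed it out of the lysosome.

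The 24 libraries held 24277722 to 28892423 counts each, and 8518 to 10802 genes had a count. The microglial genes P2ry12, Tmem119 and Cx3cr1 had counts in all 24 libraries, with medians of 4782, 1725 and 4389 CPM, that is counts scaled to a common library total. All levels are after TMM scaling, a correction for library composition. Other cell types left traces, and differences in them between groups were not tested. The summed level of 12 oligodendrocyte markers had a median of 4813 CPM in Sham (3549 to 13700) and 4939 CPM in BCAS (1581 to 6110). In ND-Exos it was 4253 CPM (3871 to 8208) and in WD-Exos 4993 CPM (3525 to 10200). Among these markers Trf had the highest median, 4371 CPM. The summed level of 12 endothelial and mural markers had a median of 245 CPM in Sham (2.61 to 1011) against 21.9 CPM in BCAS (0.0356 to 33.5), 28.5 CPM in ND-Exos (7.65 to 51.1) and 40.7 CPM in WD-Exos (10.8 to 78.9). Of these 12 markers Cldn5 had counts in 5 libraries and Pdgfrb in 4. The sum of 15 immediate early genes, which rise when cells are handled, had medians of 2213 CPM in Sham (703 to 3317), 3894 CPM in BCAS (804 to 19490), 4628 CPM in ND-Exos (3605 to 6926) and 9916 CPM in WD-Exos (1859 to 24760). In such bulk samples fewer cells of a type and less RNA per cell cannot be told apart. The part of these markers in the results below was not tested.

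None of the tested genes among the 10 differed between groups past the adjusted threshold of 0.05 in edgeR's quasi-likelihood test with Benjamini-Hochberg adjustment over 10219 genes. Of the 10 genes 9 entered the test, and Nr1h3 was under the filter on low counts. In BCAS against Sham 0 of the 9 genes were called, beside 0% of all tested genes. Of the 9, only Apoe had an unadjusted p under 0.05 there, against 617 of all 10219 genes. DESeq2 called 193 genes and limma's voom 10 in that comparison, none of the 9 among them, and edgeR called 32 without BCAS replicate 2. The count was 0 of 9 in ND-Exos against BCAS (0.0196% of all genes called), 0 of 9 in WD-Exos against BCAS (0%) and 0 of 9 in WD-Exos against ND-Exos (0.0196%). WD-Exos against BCAS had 379 genes at an unadjusted p under 0.05, with 109 calls by DESeq2 and 1 by voom. A test of any difference among the 4 groups called 0.0294% of genes and 0 of the 9, with Apoe lowest at an unadjusted p of 0.128 in the edgeR fit.

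The mean of BCAS, ND-Exos and WD-Exos was also set against Sham, a comparison added after group means on the same side of Sham were seen in these data. For each of the 9 genes the Sham and operated libraries overlapped. It called 57 genes, 6 higher and 51 lower in the operated groups, which was 0.558% of those tested, and 0 of the 9. Leaving out 1 library moved the 57 calls to between 15 (without Sham replicate 3) and 90 (without BCAS replicate 2), and to 23, 17 and 34 without Sham replicate 1, Sham replicate 5 and BCAS replicate 4.

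**Figure D1:**
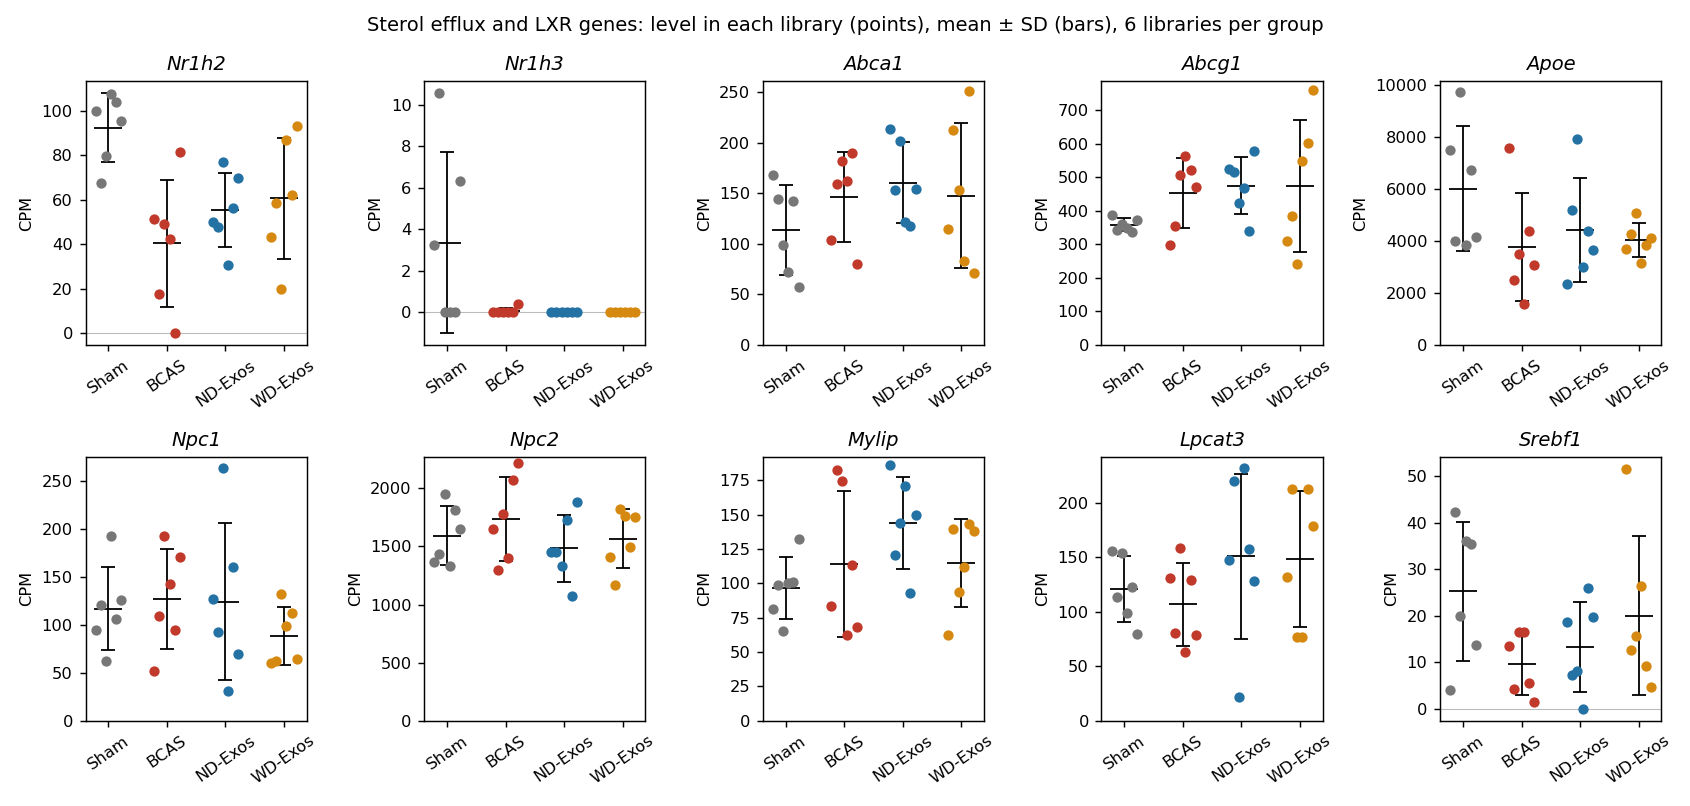
Level of each of the 10 genes in CPM (vertical axes, starting at or just below 0) in the 24 libraries, with 1 point a library and bars for the group mean ± SD (n = 6). Nr1h2 sat at 67.3 to 108 CPM in Sham and at 0.0813 to 81.5 CPM in BCAS, and Nr1h3 had counts in 3 Sham libraries and 1 BCAS library only.

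The genes covered a wide range of levels. Levels were divided by kilobases of annotated exon for a rough comparison of genes. The lengths were unions of exons, 2138 bases for Apoe, 5438 for Npc2 and 7298 for Abcg1, and can exceed the expressed transcript. On this scale Apoe had a mean level of 2130 CPM per kilobase over the 24 libraries (739.9 to 4562). Npc2 followed at 293 CPM per kilobase (197 to 408) and Abcg1 at 60.3 CPM per kilobase (33.1 to 104). With these lengths the ranges of these 3 did not overlap, and the gaps between them depend on the lengths used. Lpcat3 (40.4), Mylip (36.3), Nr1h2 (18.5), Abca1 (13.7) and Npc1 (10.1 CPM per kilobase) came next, and each overlapped its neighbour in the order, as did Lpcat3 and Abcg1. Srebf1 stood at 3.02 and Nr1h3 at 0.340 CPM per kilobase, and their ranges overlapped too. The receptor messages were thus both below those of Apoe, Npc2 and Abcg1 on this length-scaled scale.

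**Figure D2:**
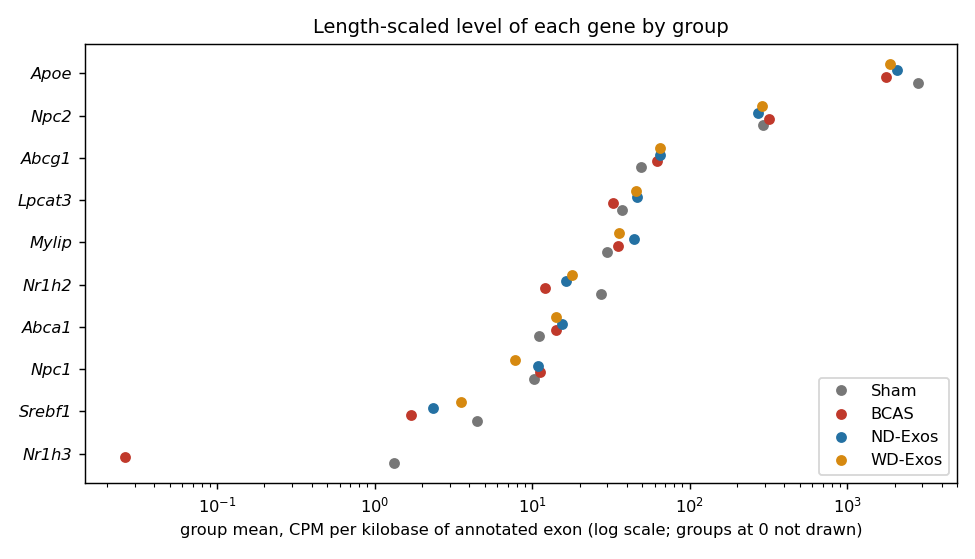
Mean length-scaled level of each gene in each group (points), in CPM per kilobase of annotated exon on a log axis, with groups at 0 not drawn. Apoe and Npc2 lie above the other 8 genes in all 4 groups, and Nr1h3 has points for Sham and BCAS only. The lengths are unions of annotated exons, which can be longer than the expressed transcript.

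Of the receptors, Nr1h2 had a mean of 92.3 ± 15.6 CPM in Sham and 40.3 ± 28.4 CPM in BCAS (SD, n = 6 each). Sham ran from 67.3 over a median of 97.6 to 108 CPM. BCAS ran from 0.0813 over a median of 45.5 to 81.5 CPM, and 5 of its 6 libraries lay below every Sham library. ND-Exos ran from 30.7 over 53.1 to 76.8 CPM and WD-Exos from 19.6 over 60.3 to 93.0 CPM. Over the 3 operated groups 13 of 18 libraries were below the lowest Sham library, and none was above the highest. The lowest BCAS value was 2 counts in replicate 5, where the other 5 libraries of that group had 479 to 2289 counts.

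The log2 fold change of Nr1h2 in BCAS against Sham was -1.20 (SE 0.62, 95% interval -2.47 to 0.08, edgeR adjusted p = 0.914). Without BCAS replicate 5 it was -0.93 (SE 0.38, edgeR adjusted p = 0.523). Weighting the libraries by quality in limma's voom gave -2.27 (adjusted p = 0.428). Against Sham the 3 operated groups together had a log2 fold change of -0.85 (SE 0.48, edgeR adjusted p = 0.889). Against BCAS, ND-Exos gave 0.46 (SE 0.61) and WD-Exos 0.59 (SE 0.61), 2 comparisons that share the BCAS libraries. These became 0.19 (SE 0.37) and 0.33 (SE 0.37) without BCAS replicate 5, 0.78 (SE 0.64) and 0.92 (SE 0.64) without BCAS replicate 6, and 1.51 (SE 0.89) and 1.42 (SE 0.88) with voom. WD-Exos against ND-Exos was 0.13 (SE 0.61, 95% interval -1.12 to 1.39, edgeR adjusted p = 1).

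Nr1h3 had a count in only 4 of the 24 libraries. It had 87, 296 and 155 counts in Sham replicates 1, 2 and 6, which is 3.24, 10.6 and 6.33 CPM, and 11 counts (0.392 CPM) in BCAS replicate 6. The other 20 libraries, among them all 12 from mice given exosomes, had 0 counts. A count of 0 allows a level of up to 3 counts, or 0.100 to 0.130 CPM by library, for counting error only. The group means were 3.36 ± 4.35 CPM in Sham and 0.0653 ± 0.160 CPM in BCAS (SD, n = 6 each). An exact two-sided permutation test of BCAS against Sham gave p = 0.182, where 6 against 6 can reach 0.00217. With no filter on low counts, edgeR called Nr1h3 in operated groups against Sham (adjusted p = 0.0132), in a fit that called 983 of 15190 genes, or 6.47%, of which 952 were lower. For BCAS against Sham the same fit gave an adjusted p of 0.437. Counts of Nr1h3 may hold reads of Gm13783, a transcript on the same strand that overlaps it and has no values of its own in the table.

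Among the efflux pumps, Abcg1 was even in Sham and spread out after the operation. Sham libraries lay between 335 and 387 CPM, with a median of 356 CPM and a coefficient of variation (SD over mean) of 5.46%. BCAS ran from 299 over 489.5 to 563 CPM, ND-Exos from 339.5 over 492 to 577 CPM, and WD-Exos from 242 over 467 to 760 CPM, with coefficients of variation of 22.9%, 17.9% and 41.4%. The difference in spread was not tested. Above the highest Sham library were 12 of the 18 operated libraries, and 3 were below the lowest. Over the 24 libraries Abcg1 had r = 0.525 with astrocyte markers (permutation p = 0.00852, 0.143 adjusted over 81 such relations; rho = 0.610, permutation p = 0.00207, adjusted 0.0917; r = 0.492 without the 2 farthest libraries). With the number of genes with a count r was -0.465 (permutation p = 0.0215, adjusted 0.193; rho = -0.510, permutation p = 0.0115, adjusted 0.133; r = -0.470 without the 2 farthest). With immediate early genes r was -0.321 (permutation p = 0.125, adjusted 0.531), rho was -0.245 (permutation p = 0.246, adjusted 0.689), and r was -0.405 without the 2 farthest libraries and -0.596 with group means subtracted. Their part in the level of Abcg1 was not tested. The log2 fold change in BCAS against Sham was 0.34 (SE 0.21, edgeR adjusted p = 1), and 0.11 once the detected gene count was a covariate. For the operated groups together it was 0.38 (SE 0.18, 95% interval 0.02 to 0.75), with an unadjusted p of 0.0385 and an edgeR adjusted p of 0.663. The means of WD-Exos and ND-Exos were both 474 CPM, and the interval of their fold was 0.741 to 1.35.

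Abca1, the pump that starts particle formation, ran in Sham from 57.1 over a median of 121 to 169 CPM. BCAS ran from 80.1 over 161 to 189.8 CPM, ND-Exos from 118 over 154 to 214 CPM, and WD-Exos from 71.5 over 134 to 252 CPM. All 4 groups overlapped. The log2 fold change was 0.36 (SE 0.31) in BCAS against Sham, 0.13 (SE 0.31) in ND-Exos against BCAS and 0.02 (SE 0.31) in WD-Exos against BCAS, with edgeR adjusted p of 1 in each. For WD-Exos against ND-Exos the 95% interval of the fold was 0.596 to 1.42.

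Apoe, which ranked 24 among all tested genes by CPM, had the lowest unadjusted p of the 9 genes in BCAS against Sham. Sham ran from 3850 over a median of 5456 to 9754 CPM, and BCAS from 1582 over 3290 to 7594 CPM. ND-Exos ran from 2346 over 4022 to 7943 CPM and WD-Exos from 3137 over 3981 to 5085 CPM. In BCAS 4 of 6 libraries were below every Sham library, while replicate 1 at 7594 CPM was higher than 5 of the 6 Sham libraries. Over the 3 operated groups 9 of 18 libraries were below the lowest Sham library and 0 were above the highest.

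The log2 fold change of Apoe in BCAS against Sham was -0.67 (SE 0.30, 95% interval -1.29 to -0.06, unadjusted p = 0.0337, edgeR adjusted p = 0.693). Without BCAS replicate 1 it was -0.999 (edgeR adjusted p = 0.378), and -0.38 once the detected gene count was a covariate. For the operated groups against Sham it was -0.56 (SE 0.24, edgeR adjusted p = 0.541), and -0.37 without Sham replicate 3, the library with the highest level. Against BCAS, ND-Exos gave 0.23 (SE 0.30) and WD-Exos 0.10 (SE 0.30). Without BCAS replicate 1 these were 0.56 (SE 0.28, edgeR adjusted p = 0.877) and 0.42 (SE 0.28, edgeR adjusted p = 1), and without ND-Exos replicate 3 the former was -0.01.

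Apoe also varied more between libraries than genes of like abundance. Its coefficient of variation over all 24 libraries was 43.7%, above each of the 32 tested genes within a 2-fold range of its level, whose median was 18.9%. Npc2, the other abundant gene of the set, had 18.1% against a median of 21.6% for 116 genes of its level.

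**Figure D3:**
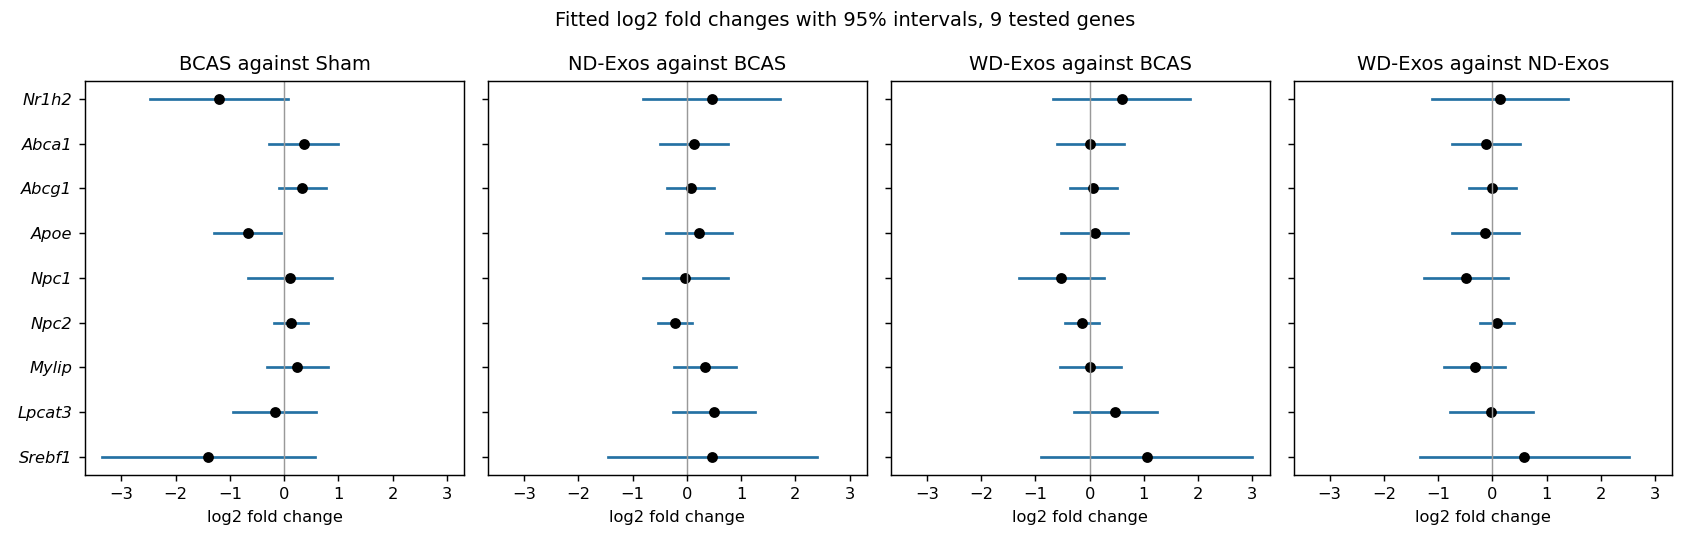
Log2 fold change of each of the 9 tested genes in the 4 pairwise comparisons (points, edgeR) with its 95% interval (lines), on a log2 axis where 0 is no difference. Of the lines drawn, all but that of Apoe in BCAS against Sham (-0.67) cross 0, and none of the 9 genes passed the adjusted threshold.

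Of all the library measures, Apoe had its largest Pearson's r over the 24 libraries with genes of another brain macrophage, but other measures of relation ranked differently. By rho, astrocyte markers (-0.564) and the number of genes with a count (0.510) were larger in size than these genes (0.463). Without the 2 farthest libraries the number of genes with a count had the larger r, 0.652 against 0.518. Border macrophages, which line vessels and meninges, are known for high Apoe, Mrc1 and Pf4, and Apoe is also a major product of astrocytes. Each of the 9 tested genes, as log2(CPM + 1), was set against the number of genes with a count and 8 sums of marker or early genes over the 24 libraries, an analysis chosen after the data were seen. Of these 81 relations 11 had an unadjusted permutation p under 0.05 for Pearson's r, and 0 passed after Benjamini-Hochberg adjustment, with the lowest adjusted p at 0.134 for r and 0.0917 for Spearman's rho. For Apoe and 9 border macrophage markers r was 0.613 (permutation p = 0.00166, adjusted 0.134) and rho was 0.463 (permutation p = 0.0233, adjusted 0.188). Without the 2 libraries farthest from the median of the x axis r was 0.518, and with group means subtracted it was 0.600. Within the groups of 6 r was 0.787 in Sham, 0.581 in BCAS, 0.520 in ND-Exos and 0.222 in WD-Exos.

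The 4 libraries with the most Apoe were also the 4 with the most of these markers, but the order did not hold below them. Sham replicate 3 (9754 CPM of Apoe), ND-Exos replicate 3 (7943), BCAS replicate 1 (7594) and Sham replicate 1 (7523) had marker sums of 1137, 919.5, 632 and 1477 CPM, the 4 highest. ND-Exos replicate 1 had a sum of 516 CPM with 2346 CPM of Apoe. Sham replicate 5 had 6753 CPM of Apoe with a sum of 333 CPM. In the groups the sums ran from 282 to 1477 CPM in Sham, 73.8 to 632 CPM in BCAS, 234 to 919.5 CPM in ND-Exos and 137 to 321 CPM in WD-Exos, all far below the 52610 to 91350 CPM of 12 microglial markers. Of the 9 markers Mrc1, Pf4 and Stab1 had counts in all 24 libraries and Lyve1 in 5. Stab1 had the highest median, 170.7 CPM (73.6 to 289.7). Mrc1 (median 34.5 CPM) and Pf4 (21.7 CPM) fell as low as 0.0734 and 0.0365 CPM. The lowest sum, 73.8 CPM in BCAS replicate 2, was thus nearly all Stab1.

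Astrocyte markers ran the other way, with r = -0.517 (permutation p = 0.00943, adjusted 0.143), rho = -0.564 (permutation p = 0.00453, adjusted 0.0917) and r = -0.418 without the 2 farthest libraries. Their 12-gene sum rested mostly on Slc1a3 (median 139.8 CPM). Slc4a4 was at 0 in all 24 libraries, and Aqp4 reached 0.0831 CPM at most, in 3 libraries. With the number of genes with a count r was 0.513 (permutation p = 0.0106, adjusted 0.143), rho was 0.510 (permutation p = 0.0120, adjusted 0.133), and r was 0.652 without the 2 farthest libraries. With microglial markers r was -0.388 (permutation p = 0.0638, adjusted 0.406) and rho -0.305 (permutation p = 0.146, adjusted 0.668), and with oligodendrocyte markers r was 0.197 (permutation p = 0.357, adjusted 0.778) and rho 0.132 (permutation p = 0.535, adjusted 0.810). The part of these cell types in the level of Apoe was not tested further.

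**Figure D4:**
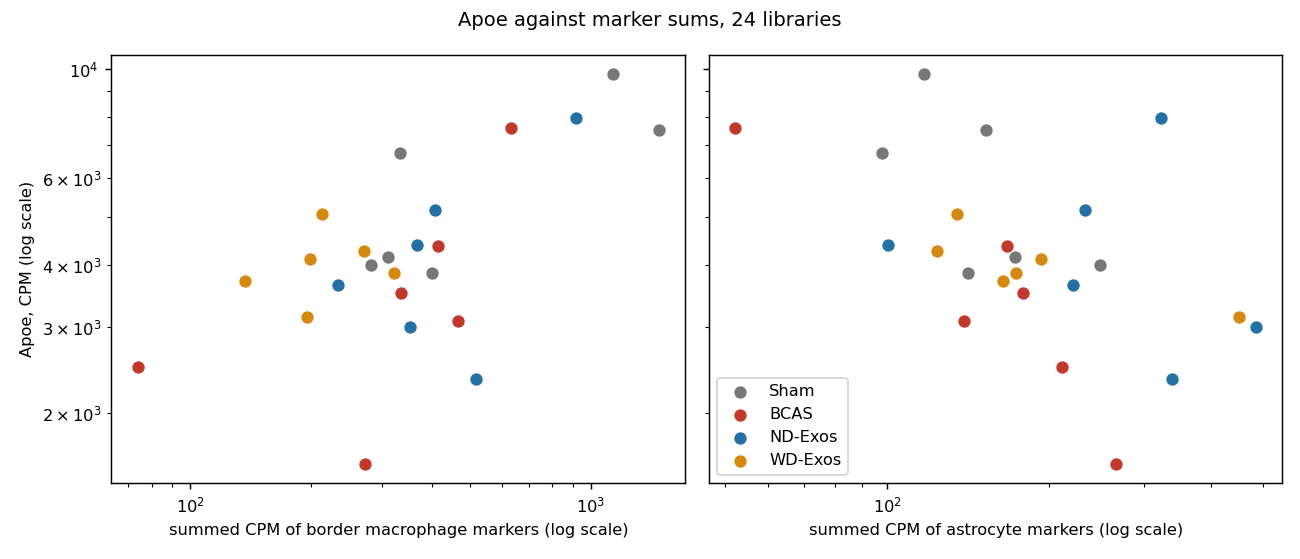
Apoe in CPM against the summed CPM of 9 border macrophage markers (left) and 12 astrocyte markers (right) in each of 24 libraries, both axes on a log scale and points coloured by group. The 4 libraries with the most Apoe, from 7523 CPM up, are the 4 with the highest border macrophage sums, 632 to 1477 CPM. Below these 4 the order does not hold, as in ND-Exos replicate 1 with a sum of 516 CPM and 2346 CPM of Apoe.

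The lysosomal carriers had overlapping values in all 4 groups. Npc2, the soluble protein that takes cholesterol from lysosomal lipids, had 1592 ± 256 CPM in Sham, 1735 ± 363 CPM in BCAS, 1486 ± 289 CPM in ND-Exos and 1568 ± 254 CPM in WD-Exos (SD, n = 6 each). Its libraries ran from 1072 to 2216 CPM. The 95% interval of its fold was 0.878 to 1.35 in BCAS against Sham and 0.850 to 1.31 in WD-Exos against ND-Exos, the narrowest of the 9 genes. Npc1, the membrane protein that accepts this cholesterol, had 117 ± 43.4, 127 ± 51.7, 124 ± 81.6 and 88.1 ± 30.5 CPM in the same order. Its lowest and highest libraries, 30.9 and 263 CPM, were both in ND-Exos. WD-Exos against BCAS gave a log2 fold change of -0.52 (SE 0.38, edgeR adjusted p = 1). Rmc1 overlaps Npc1 on the opposite strand by 967 bases, and strand use in counting is not given in the sources used here.

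The other LXR targets were of moderate to low level. Mylip, a ubiquitin ligase, had a median of 99.6 CPM in Sham (64.9 to 132), 98.5 CPM in BCAS (62.0 to 182), 147 CPM in ND-Exos (93.0 to 186) and 125 CPM in WD-Exos (62.3 to 143). Its log2 fold change in ND-Exos against BCAS was 0.34 (SE 0.27, edgeR adjusted p = 1), 0.51 without BCAS replicate 2 and 0.21 without BCAS replicate 4. Lpcat3, which puts polyunsaturated chains into phospholipids, had a median of 118 CPM in Sham (79.9 to 156), 105 CPM in BCAS (62.9 to 159), 153 CPM in ND-Exos (21.3 to 232) and 156 CPM in WD-Exos (77.0 to 213). Against BCAS its log2 fold change was 0.50 (SE 0.37) in ND-Exos and 0.47 (SE 0.37) in WD-Exos, which share the BCAS libraries, with edgeR adjusted p of 1 in each. The former was 0.33 without ND-Exos replicate 4 and 0.74 (SE 0.29, edgeR adjusted p = 0.573) without ND-Exos replicate 3. Emg1 overlaps Lpcat3 on the opposite strand by 334 bases.

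Srebf1, which encodes the lipogenic regulator SREBP-1, was the least abundant of the 9 tested genes. Sham ran from 4.03 over a median of 27.7 to 42.2 CPM and BCAS from 1.495 over 9.497 to 16.6 CPM. ND-Exos ran from 0.0385 CPM, 1 count in replicate 4, over 13.4 to 25.9 CPM, and WD-Exos from 4.63 over 14.1 to 51.6 CPM. In Sham 4 of 6 libraries were above every BCAS library, and the ranges overlapped. Srebf1 had r = 0.568 with the endothelial and mural markers (permutation p = 0.00419, 0.143 adjusted over the 81 relations) and rho = 0.579 (permutation p = 0.00368, adjusted 0.0917) over 24 libraries. Without the 2 farthest libraries r was 0.397, with group means subtracted 0.467, and the median sum of these markers was 245 CPM in Sham against 21.9 CPM in BCAS. The part of these markers in the level of Srebf1 was not tested. The log2 fold change in BCAS against Sham was -1.39 (SE 0.96, 95% interval -3.35 to 0.57, edgeR adjusted p = 1). WD-Exos against BCAS was 1.06 (SE 0.95) and ND-Exos against BCAS 0.47 (SE 0.94).

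Across the 9 tested genes the direction of the changes was mixed. In BCAS against Sham 5 were higher and 4 lower, and the median was 0.12 on the log2 scale. Over all genes tested the median was 0.00, and 49.9% were higher. The pattern against BCAS was 7 higher and 2 lower in both exosome groups, with medians of 0.23 for ND-Exos and 0.07 for WD-Exos beside 0.01 and -0.02 over all genes, of which 50.4% and 48.9% were higher, and these comparisons share the BCAS libraries. In WD-Exos against ND-Exos 3 were higher and 6 lower, with a median of -0.03 beside -0.01 over all genes, of which 49.2% were higher.

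From library to library, 0 of the 36 pairs among the 9 genes were related past 0.05 after adjustment. Abca1 and Abcg1, the textbook pair of LXR targets, had r = 0.105 (permutation p = 0.628, adjusted 0.856) and rho = 0.289 (permutation p = 0.171, adjusted 0.664) over 24 libraries, with r = 0.300 without the 2 farthest and -0.04 with group means subtracted. The strongest relation was between Npc1 and Lpcat3, with r = -0.614 (permutation p = 0.00141, adjusted 0.0508) and rho = -0.524 (permutation p = 0.00914, adjusted 0.329). Without the 2 farthest libraries r was -0.398, and leaving out 1 library gave -0.678 to -0.499. ND-Exos replicate 3 had both the highest Npc1 (263 CPM) and the lowest Lpcat3 (21.3 CPM) of the 24 libraries. Within the groups r was -0.739 in Sham, -0.241 in BCAS, -0.721 in ND-Exos and -0.509 in WD-Exos. The adjusted p passed 0.05 when BCAS replicate 3 (0.0130), ND-Exos replicate 1 (0.0450), ND-Exos replicate 5 (0.0238) or WD-Exos replicate 5 (0.0353) was left out of the permutation test.

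**Figure D5:**
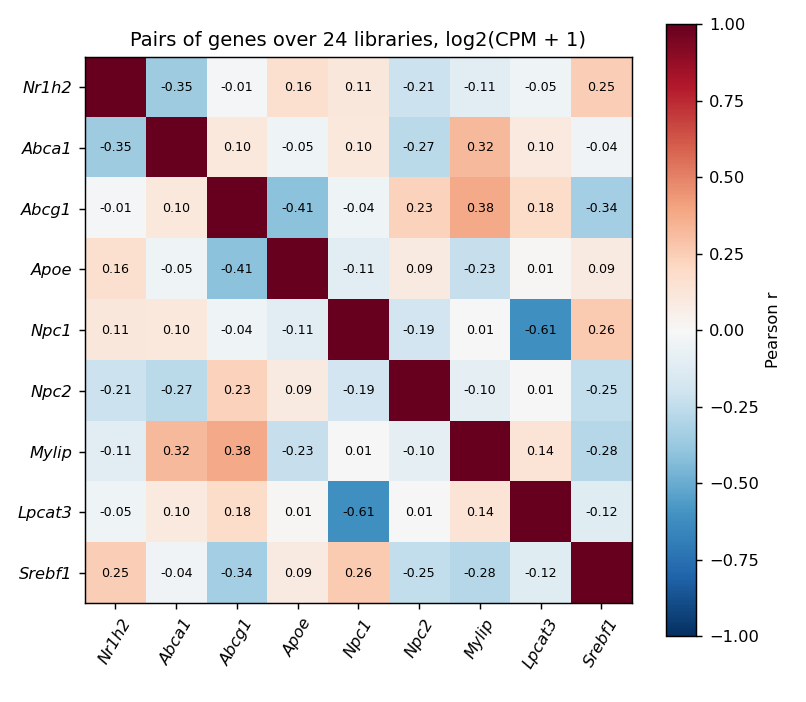
Pearson's r of log2(CPM + 1) over 24 libraries for each pair of the 9 tested genes (colour scale from -1 to 1, value in each cell). The lowest off-diagonal value is -0.61 for Npc1 and Lpcat3 and the highest 0.38 for Abcg1 and Mylip.

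The promoters of Abca1 and Srebf1 both carry a known LXR element, a pair of receptor sites spaced by 4 bases. Promoter windows from 250 bases before to 50 bases after a start site came from RefSeq (GRCm38.p6), with 13 windows for 8 of the 10 genes and none for Abcg1 and Npc1. The letters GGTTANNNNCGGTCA, taken from the known elements of these genes, matched on either strand in 4 of 32851 windows (0.0122%), and 2 of the 4 were those of Abca1 and Srebf1. Since the letters came from these genes, that match is a description. They are shown because these 2 genes share the element. Their levels had r = -0.04 over 24 libraries (0.10 with group means subtracted). Counts were per gene and do not separate the starts of Srebf1, so this r cannot show what the element does. The part of the element in these levels was not tested. Each window is on the minus strand, reads 5′ to 3′ in the direction of the gene, and has the element in capitals as it stands on that strand.
Abca1, chr4:53159846-53160145: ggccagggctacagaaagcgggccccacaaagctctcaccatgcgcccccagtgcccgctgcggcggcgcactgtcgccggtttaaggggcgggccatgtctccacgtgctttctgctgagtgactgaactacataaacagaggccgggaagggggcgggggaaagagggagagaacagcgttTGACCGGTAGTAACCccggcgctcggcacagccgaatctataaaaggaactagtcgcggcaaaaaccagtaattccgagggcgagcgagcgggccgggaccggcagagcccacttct
Srebf1, chr11:60210422-60210721: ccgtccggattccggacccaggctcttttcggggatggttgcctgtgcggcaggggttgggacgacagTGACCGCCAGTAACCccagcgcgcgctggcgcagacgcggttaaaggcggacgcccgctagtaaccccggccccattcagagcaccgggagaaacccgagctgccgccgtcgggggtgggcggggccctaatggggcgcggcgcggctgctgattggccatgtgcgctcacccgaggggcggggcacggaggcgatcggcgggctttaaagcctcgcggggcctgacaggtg
The element lies at chr4:53159948-53159962 in Abca1, 67 bases before the start, and at chr11:60210639-60210653 in Srebf1, 182 bases before one of its 3 annotated starts. The consensus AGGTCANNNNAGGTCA with up to 2 mismatches on either strand matched 0 of the 13 windows and 3.02% of all windows. The sterol regulatory element TCACCCCAC matched 0 of 13 and 0.551% of all. The E-box CACGTG matched 1 of the 13, in Abca1 at 147 bases before the start, and 7.15% of all windows. A missing match says only that these letters are not in that window.

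The wider pathway gave no calls either. Among 20 further LXR target genes 15 were tested, and 0 passed in any comparison. In BCAS against Sham 4 were higher and 11 lower, and the median was -0.30 on the log2 scale. Over all genes the median was 0.00, and 49.9% were higher. Some of the 15 were sparse, with counts of Acsl3 and Apoc2 in 9 libraries each, and the split was not tested. Lpl, which frees fatty acids from lipoproteins, had 66.0 ± 33.9 CPM in BCAS and 129.8 ± 68.0 CPM in Sham (log2 fold change -0.98, SE 0.38, edgeR adjusted p = 0.461). Pltp, a phospholipid carrier, had 12.4 ± 22.7 against 92.1 ± 163 CPM (SD, n = 6), where the Sham mean rested on 1 library at 421 CPM. Abcg5 and Abcg8 had no values, and Scd1, Cd5l and Fads2 were under the filter.

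Of 13 LXR partners and coregulators 12 were tested and 0 passed. The corepressor Ncor1 had 42.1 ± 24.1 CPM in WD-Exos and 84.3 ± 20.4 CPM in ND-Exos, and 4 of the 6 WD-Exos libraries lay below every ND-Exos library (log2 fold change -1.001, SE 0.43, edgeR adjusted p = 0.780). Against the 74.1 ± 43.2 CPM of BCAS the difference in WD-Exos was -0.82 (SE 0.43, edgeR adjusted p = 1). Rxra, a retinoid X receptor, had 22.8 ± 14.2 CPM in ND-Exos and 7.75 ± 10.9 CPM in BCAS (log2 fold change 1.55, SE 1.37, edgeR adjusted p = 1). BCAS replicates 1, 2 and 3 were at 0, and BCAS replicates 4 and 5 at 20.4 and 22.9 CPM. ND-Exos replicate 4 was at 0.0385 CPM.

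Sterol synthesis and uptake genes, which fall when a cell is full of sterol, numbered 28, of which 24 were tested and 0 passed. Their medians were 0.15 in BCAS against Sham, -0.13 in ND-Exos against BCAS and 0.02 in WD-Exos against BCAS on the log2 scale. Of the 24, 0 reached an unadjusted p under 0.05 in any of the 4 pairwise comparisons. Over all tested genes the shares were 6.04% in BCAS against Sham and 4.47% in ND-Exos against BCAS. They were 3.70% in WD-Exos against BCAS and 5.33% in WD-Exos against ND-Exos. With only 24 genes, a count of 0 lies near these shares. Fdft1, the squalene synthase, had 4.45 ± 8.63 CPM in ND-Exos, 24.2 ± 20.3 CPM in BCAS and 19.9 ± 12.7 CPM in WD-Exos. Its mean in Sham was 12.35 CPM. The gene was sparse, with ND-Exos replicates 1, 5 and 6 at 0 and ND-Exos replicate 3 at 21.6 CPM. Sham replicates 3, 5 and 6 were at 0.166 CPM or less, and BCAS replicate 6 at 0.107 CPM. Its log2 fold change in ND-Exos against BCAS was -2.44 (SE 1.73, edgeR adjusted p = 1).

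Among 20 genes of sterol storage, oxidation and transfer 15 were tested and 0 passed. Soat1, which esterifies cholesterol for storage, had 44.3 ± 25.3 CPM in BCAS and 103 ± 34.2 CPM in ND-Exos (SD, n = 6 each). In ND-Exos 5 of 6 libraries were above every BCAS library, with a log2 fold change of 1.22 (SE 0.38, unadjusted p = 0.00365, edgeR adjusted p = 0.577). Stard3, a late-endosomal sterol carrier, had 172 ± 80.4 CPM in BCAS and 96.1 ± 34.4 CPM in Sham (log2 fold change 0.84, SE 0.34, edgeR adjusted p = 0.540). Osbpl9, an oxysterol-binding protein family member, had 167 ± 79.4 CPM in WD-Exos and 101 ± 24.6 CPM in ND-Exos (log2 fold change 0.73, SE 0.27, edgeR adjusted p = 0.614). Cyp46a1, the cholesterol 24-hydroxylase, had counts in only 9 of the 24 libraries. Its level was 6.26 ± 9.09 CPM in Sham and 5.77 ± 8.21 CPM in WD-Exos (SD, n = 6 each). Sham replicates 1, 2 and 3 and WD-Exos replicates 2, 5 and 6 were at 0. The level was 0.0120 ± 0.0187 CPM in BCAS and 0.00595 ± 0.0146 CPM in ND-Exos (SD, n = 6 each). No BCAS library had more than 1 count of Cyp46a1, so no fold change is given.

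Genes with the most similar profile over the 24 libraries differed from gene to gene. They were ranked by Pearson's r of log2(CPM + 1) against 2630 genes with a mean above 50 CPM (2631 for Srebf1), a description that carries no test. Apoe was closest to the lysozymes Lyz1 (0.776) and Lyz2 (0.743) and to Dync1li2 (0.668). Abcg1 was closest to Pdia6 (0.828), Itpripl1 (0.754) and Ssr1 (0.742), and Abca1 to Tagap (0.701), C5ar2 (0.693) and C5ar1 (0.672). For Nr1h2 they were Tiprl (0.848), Arsk (0.848) and Wdr61 (0.819), and for Srebf1 Ap1b1 (0.709), Capn3 (0.699) and Acaa1a (0.697). Npc2 was closest to Cyba (0.715), B2m (0.692) and Cfl1 (0.677), and Npc1 to Tmem141 (0.716), Fam91a1 (0.645) and Fam110a (0.633). Mylip was closest to Pan3 (0.724), Gal3st4 (0.670) and Atp6v0b (0.670), and Lpcat3 to Casp1 (0.659), Eif2s3y (0.651) and P2ry6 (0.643). None of the lists held another of the 10 genes, and Srebf1 and Nr1h3, with means under 50 CPM, could not appear in them. Since only the closest genes of each are shown, this absence does not show whether the 10 genes vary together.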

How the data were processed

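Microglia from mouse brain were sorted into lysate and their RNA was amplified by Smart-seq2, per the labels' protocols. The table that the authors deposited holds unscaled estimated counts, 1 row per Entrez gene. Which aligner, counter, genome build and strand setting made it is not given in the sources used here. Of 22064 identifiers, 6186 were blank in every library, and 76.8% of the other 15878 were whole numbers throughout. Symbols came from the RefSeq gene table of GRCm38.p6. Exon lengths for the length-scaled levels were unions of annotated exons in GENCODE vM21, which can be longer than the expressed transcript.

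Estimated counts as deposited were rounded. The test was that of edgeR 4.0.16, run in R 4.3.3 (filterByExpr with a minimum count of 10, TMM factors from 0.936 to 1.175, robust quasi-likelihood F test, 1 fit of all 24 libraries with 4 group means, Benjamini-Hochberg threshold 0.05). This left 10219 genes, 52.0% of them at 0 in at least 1 library. The script was tested on simulated data. Intervals of fold changes are 95% from the standard error and the t distribution. Relations over libraries used 100000 permutations (scipy 1.17.1), two-sided, on log2(CPM + 1). Alternatives were DESeq2 1.42.0 and its size factors, limma 3.58.1 (voom), no filter, a filter of 1 CPM in 12 libraries, a replicate block, detected genes as a covariate, only the 2 groups compared, and leaving out each library. Comparison of the operated groups with Sham, and of each tested gene with library measures, was added after the data were seen.

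The 10 genes, the pathway lists and the marker lists were chosen with earlier results of these data known. Named were all 10 genes, of each pathway list and pairwise comparison genes among the 2 with the smallest p where none passed, the 3 genes most alike each member, and 3 microglial genes. Reads were amplified and carry no molecular identifiers, so the floor of 3 counts covers counting error only. Replicate numbers did not pair the libraries: the mean correlation of same-numbered libraries, after group means were removed, was -0.02 to 0.01, and 5 of 24 correlated best with their own number.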

Additional observations from a re-analysis of the deposited data

Results flagged for a closer look

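Nr1h3 in BCAS replicate 6 stood at 0.392 CPM while the other 5 BCAS libraries had 0 counts, so the gap to the next library was the whole range of the group. The value is 11 counts, above the floor of 3 counts. With 5 libraries at 0 this gap is the whole range for any count in the sixth, so its size carries no information beyond that count. It was 1 of 38 sets of 1 gene in 1 group screened, where chance flags about 1 in 20.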

How the results depend on the processing

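None of the 9 tested genes passed the threshold in any comparison under any alternative run, and Nr1h3 passed only without the filter, in the operated groups against Sham. Counts over all genes moved with the tool. DESeq2 called 193 (BCAS against Sham), 141 (ND-Exos against BCAS), 109 (WD-Exos against BCAS), 124 (WD-Exos against ND-Exos) and 273 (operated against Sham), and voom 10, 1, 1, 4 and 123, with the cause not tested. Without the filter, 983 genes were called in operated against Sham and 30 for any difference among groups. The covariate of detected genes gave 1 in ND-Exos against BCAS and 13 for any difference, and the fit of only 2 groups 1 in WD-Exos against ND-Exos. Leaving out 1 library gave 0 to 32, 1 to 3, 2 to 5, 15 to 90 and 2 to 42 calls in BCAS against Sham, ND-Exos against BCAS, WD-Exos against ND-Exos, operated against Sham and any difference. Fitting the replicate number as a block gave 39 calls in operated against Sham and 2 for any difference, changed no call among the 9 genes, and moved Abca1 in WD-Exos against BCAS to -0.0666. Since same-numbered libraries were not alike, this fit is no paired analysis.

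Small fold changes, none of them called, changed sign, and the cause was not tested. For BCAS against Sham on the log2 scale, Npc1 was -0.0221 with voom and Npc2 -0.0363 with the covariate. For ND-Exos against BCAS, Apoe was -0.0162 with the covariate and Srebf1 -0.199 with voom. In WD-Exos against BCAS, Abca1 (-0.0346), Apoe (-0.167) and Npc2 (0.00349) moved with the covariate and Abcg1 (-0.0916) with voom. For WD-Exos against ND-Exos, Abcg1 was 0.0106 with DESeq2 or its size factors, 0.00654 without the filter, 0.00880 with only 2 groups and 0.0538 with the covariate. There Nr1h2 was -0.0922 with voom, and Lpcat3 was 0.00569 with the size factors of DESeq2, 0.00570 with DESeq2 and 0.0525 with voom. Leaving out 1 library gave, for Npc1, -0.0384 to 0.316 in BCAS against Sham and -0.386 to 0.173 in ND-Exos against BCAS. It gave -0.0276 to 0.147 for Abcg1 and -0.00520 to 0.555 for Apoe in ND-Exos against BCAS. In WD-Exos against BCAS it gave -0.191 to 0.171 for Abca1, -0.105 to 0.211 for Abcg1, -0.0633 to 0.422 for Apoe and -0.117 to 0.200 for Mylip. In WD-Exos against ND-Exos it gave -0.324 to 0.0370 for Abca1, -0.169 to 0.148 for Abcg1, -0.262 to 0.128 for Apoe, -0.0160 to 0.327 for Nr1h2, -0.000646 to 0.163 for Npc2 and -0.242 to 0.156 for Lpcat3.

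Of the 36 pairs 1 passed with a pseudocount of 5, Npc1 and Lpcat3, and leaving out 1 library gave 0 to 1. With group means subtracted r was -0.0391 for Abca1 and Abcg1 and 0.103 for Abca1 and Srebf1, and leaving out 1 library gave -0.159 to 0.0431 for the latter pair. Depth was similar throughout, and precision was lowest for Nr1h3 and Srebf1, at 0.856 and 17.0 CPM on average.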
